A study of Homo sapiens with 9 samples.

Results

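The endothelial cell identity genes described here are Pecam1, Cdh5, Esam, Tek, Tie1, Emcn, Vwf, Eng, Plvap and Sox17. They were taken by symbol from an expression table of 17369 genes, in which all 10 had a row. The table holds RNA from 9 whole orthotopic tumors grown from TBP3743, a murine anaplastic thyroid cancer cell line from B6129SF1 mice that carries thyroid-specific Braf V600E and a thyroid-specific Trp53 deletion. Original TBP3743 cells in B6129SF1 mice formed the original/B6129SF1 group. Adapted cells, taken at round 3 of repeated transfer of TBP3743 through C57BL/6 mice, formed the adapted/B6129SF1 group in B6129SF1 mice and the adapted/C57BL/6 group in C57BL/6 mice. Each group held 3 tumors, labelled as biological replicates, and no group with original cells in C57BL/6 mice was analysed here. All hosts were 6-week-old female mice given 100000 cells into the left thyroid gland, and tumors were collected on day 14. Every tumor therefore derives from 1 cell line, and host strain can be read only between the groups that received adapted cells.

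Blood vessels are lined by endothelial cells, which a growing tumor recruits from its host. Adherens junctions built on VE-cadherin hold these cells together, the Tie receptors control how quiescent and leak-proof they are, and SOXF transcription factors help to set their identity. The 10 genes cover these roles, so in RNA from a whole tumor their levels carry the endothelial part of the mixture. In such RNA, fewer endothelial cells and less RNA per cell cannot be told apart. The deposited labels call the material human and the cell type an epithelial cancer cell, whereas the cells and hosts were mice, the table carries mouse symbols and the RNA came from whole tumors. The endothelial genes were present in every tumor at summed levels of 94.9 to 180 FPKM, beside epithelial keratins such as Krt8 at 153 to 615 FPKM. FPKM divide fragment numbers by transcript length as well as by library scale, so levels can be set side by side between genes.

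Plvap and Pecam1 were the most abundant of the 10 genes, with means over the 9 tumors of 30.6 and 26.1 FPKM. In the original/B6129SF1 group these were level, at 21.7 ± 4.20 and 22.2 ± 3.89 FPKM (SD, n = 3). Cdh5 followed at 18.4 FPKM, and Emcn, Eng and Esam came next at 14.3, 14.1 and 12.4 FPKM, close enough that their order changed between tumors. Tie1 stood lower at 6.53 FPKM, above Vwf at 3.04 FPKM and Tek at 2.09 FPKM. Sox17 was the weakest, at 0.861 FPKM. The order of the strong and the weak genes held in each group, whereas neighbours such as Emcn and Eng differed by less than their spread between tumors.

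**Figure D1:**
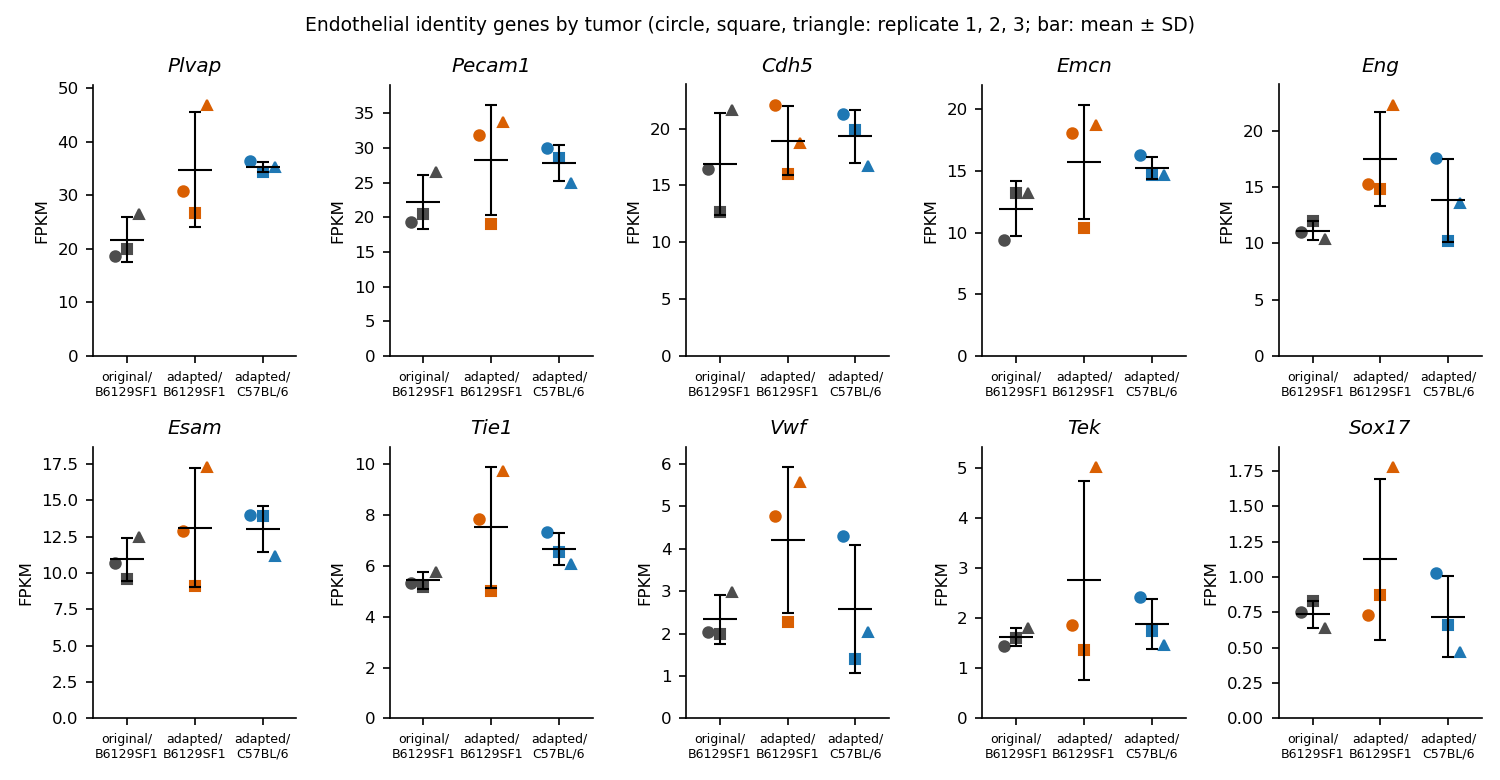
FPKM (vertical axes, from 0) of the 10 endothelial identity genes in each tumor of the original/B6129SF1, adapted/B6129SF1 and adapted/C57BL/6 groups (horizontal axes), ordered by mean level; bars give the mean and SD of 3 tumors. Adapted/B6129SF1 replicate 3 is the highest point in 9 of the 10 panels, and only Plvap sits above every original/B6129SF1 tumor in all 6 adapted tumors.

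Each of the 9 genes that could be tested had a higher mean on the log2 scale in both adapted groups than in the original/B6129SF1 group, and none passed the test. The median log2 fold change over these genes was 0.37 in the adapted/B6129SF1 group and 0.25 in the adapted/C57BL/6 group, against -0.03 over all 10263 genes tested in each comparison. A log2 fold change above 0 was seen in 9 of 9 of them in both comparisons, against 45.7% and 46.1% of all genes tested. DEGs, defined in limma by a Benjamini-Hochberg adjusted p under 0.05 together with a log2 fold change beyond 1 in either direction, numbered 0 of 9 in the adapted/B6129SF1 group, where 3.22% of all genes tested were DEGs and 8.28% passed on adjusted p alone. They numbered 0 of 9 in the adapted/C57BL/6 group, where the shares were 3.09% and 6.75%. At an unadjusted p under 0.05, 2 of the 9 passed in the adapted/B6129SF1 group and 1 in the adapted/C57BL/6 group, shares no higher than the 26.5% and 24.4% of all genes tested. Both comparisons use the same 3 original/B6129SF1 tumors, so their agreement in sign is not independent.

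Plvap, which encodes the protein of the diaphragms that span endothelial fenestrae and caveolae and is a common marker of leaky tumor vessels, showed the clearest separation. It read 18.6, 20 and 26.5 FPKM in the original/B6129SF1 tumors, 30.8, 26.6 and 46.9 FPKM in the adapted/B6129SF1 tumors, and 36.3, 34.3 and 35.2 FPKM in the adapted/C57BL/6 tumors. All 6 adapted tumors exceeded all 3 original/B6129SF1 tumors, by a narrow margin in adapted/B6129SF1 replicate 2, and the adapted/C57BL/6 tumors lay close together. The log2 fold change was 0.63 ± 0.20 (SE, 95% interval 0.17 to 1.09, limma adjusted p = 0.0931) in the adapted/B6129SF1 group and 0.69 ± 0.20 (0.23 to 1.15, adjusted p = 0.0772) in the adapted/C57BL/6 group. The second difference passed the adjusted threshold when only the 6 tumors of its groups were fitted (adjusted p = 0.0288) and when adapted/B6129SF1 replicate 3 was left out of the shared model (adjusted p = 0.0225). Its adjusted p over all alternatives ranged from 0.0225 to 0.202.

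Eng encodes endoglin, a co-receptor for TGF-beta family ligands that is raised on proliferating endothelium and is also found on macrophages and mesenchymal cells. Its levels were 11, 12 and 10.4 FPKM in the original/B6129SF1 group, 15.3, 14.8 and 22.3 FPKM in the adapted/B6129SF1 group, and 17.6, 10.2 and 13.6 FPKM in the adapted/C57BL/6 group. The adapted/B6129SF1 tumors did not overlap with the original/B6129SF1 tumors, while the adapted/C57BL/6 tumors ran from below them to above them. The log2 fold changes were 0.58 ± 0.21 (adjusted p = 0.114) and 0.26 ± 0.21 (adjusted p = 0.485). Without adapted/B6129SF1 replicate 3 the first became 0.40, and without adapted/C57BL/6 replicate 1 the second became 0.08.

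Emcn encodes endomucin, a sialomucin of venous and capillary endothelium. It was measured at 9.36, 13.2 and 13.2 FPKM in the original/B6129SF1 group, 18.1, 10.4 and 18.7 FPKM in the adapted/B6129SF1 group, and 16.3, 14.7 and 14.7 FPKM in the adapted/C57BL/6 group. The adapted/C57BL/6 tumors all lay above the original/B6129SF1 tumors, whereas adapted/B6129SF1 replicate 2 lay among them. The log2 fold change was 0.35 ± 0.22 in both comparisons (adjusted p = 0.332 and 0.368).

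Vwf encodes von Willebrand factor, which endothelial cells store and release to tether platelets. It gave 2.03, 1.98 and 2.99 FPKM in the original/B6129SF1 tumors, 4.78, 2.27 and 5.57 FPKM in the adapted/B6129SF1 tumors, and 4.29, 1.40 and 2.04 FPKM in the adapted/C57BL/6 tumors. It was the least even of the tested genes in the adapted/C57BL/6 group, with a coefficient of variation of 58.8%. The log2 fold change of 0.60 ± 0.34 in the adapted/B6129SF1 group (adjusted p = 0.296) compared with 0.03 ± 0.34 in the adapted/C57BL/6 group (adjusted p = 0.967), and the latter became -0.29 when both tumors rich in skeletal muscle transcripts, described below, were left out. Megakaryocytes also make Vwf. Of the 7 platelet and megakaryocyte markers with a row, Gp1ba, Gp9, Gp5 and Gp6 were at 0.375 FPKM or less in every tumor and Itga2b was at 0.564 to 1.12 FPKM, while Pf4, which macrophages can also transcribe, ran from 69.5 to 527 FPKM and Ppbp from 1.71 to 27.9 FPKM. Ppbp was lower in the adapted/B6129SF1 group (log2 fold change -2.43 ± 0.52, adjusted p = 0.0259), with adjusted p from 0.0116 to 0.0923 over the alternatives. The part of these cells in the Vwf values was not tested.

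The junction and adhesion genes gave small differences in both adapted groups. Cdh5, which encodes VE-cadherin, the cadherin of endothelial adherens junctions, read 16.4, 12.7 and 21.6 FPKM in the original/B6129SF1 tumors, 22.1, 16 and 18.7 FPKM in the adapted/B6129SF1 tumors, and 21.3, 19.9 and 16.7 FPKM in the adapted/C57BL/6 tumors. Its groups overlapped fully, and it was the only one of the 10 genes whose highest value was not in adapted/B6129SF1 replicate 3. The log2 fold changes were 0.18 ± 0.19 (95% interval -0.26 to 0.61, adjusted p = 0.589) and 0.21 ± 0.19 (-0.23 to 0.65, adjusted p = 0.556). Pecam1 encodes CD31, an adhesion molecule of endothelial junctions that leukocytes and platelets also carry. It ran at 19.4, 20.5 and 26.6 FPKM, then 31.9, 19.1 and 33.8 FPKM, then 30.0, 28.5 and 24.9 FPKM in the same group order. 2 of the adapted/B6129SF1 tumors and 2 adapted/C57BL/6 tumors lay above all original/B6129SF1 tumors, and adapted/B6129SF1 replicate 2 lay below them. The differences were 0.31 ± 0.21 (adjusted p = 0.386) and 0.32 ± 0.21 (adjusted p = 0.396) on the log2 scale. Esam, an immunoglobulin-like adhesion molecule of endothelial tight junctions, read 10.7, 9.60 and 12.5 FPKM in the original/B6129SF1 group, 12.9, 9.11 and 17.3 FPKM in the adapted/B6129SF1 group, and 14, 13.9 and 11.2 FPKM in the adapted/C57BL/6 group. All 3 groups overlapped, with log2 fold changes of 0.21 and 0.23 (both SE 0.21, adjusted p = 0.553 and 0.539).

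The Tie receptors were weakly expressed. Tie1, the orphan receptor that modulates signalling by its partner Tek, read 5.33, 5.17 and 5.78 FPKM in the original/B6129SF1 tumors, 7.83, 5 and 9.73 FPKM in the adapted/B6129SF1 tumors, and 7.35, 6.53 and 6.09 FPKM in the adapted/C57BL/6 tumors. Its original/B6129SF1 values were the most even of the 10 genes, with a coefficient of variation of 5.76%, and all adapted/C57BL/6 tumors lay above them. The log2 fold changes were 0.37 ± 0.19 (adjusted p = 0.264) and 0.25 ± 0.19 (adjusted p = 0.475). Tek encodes Tie2, the receptor for angiopoietins, which some macrophages also express. It read 1.45, 1.60 and 1.81 FPKM in the original/B6129SF1 group, 1.87, 1.37 and 5.02 FPKM in the adapted/B6129SF1 group, and 2.43, 1.75 and 1.47 FPKM in the adapted/C57BL/6 group. A single tumor, adapted/B6129SF1 replicate 3, stood at 3.10 times the original/B6129SF1 mean, and the log2 fold change of 0.40 ± 0.32 (adjusted p = 0.450) became -0.0038 without it. In the adapted/C57BL/6 group the log2 fold change was 0.13 ± 0.32 (adjusted p = 0.844).

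The other genes of the angiopoietin system that could be tested also gave no call. Angpt2, the ligand that endothelial cells release to loosen Tie2 signalling, was at 7.60 ± 1.29 FPKM in the original/B6129SF1 group, 11.8 ± 8.07 FPKM in the adapted/B6129SF1 group and 9.58 ± 3.21 FPKM in the adapted/C57BL/6 group. The spread of the second mean lay in 1 tumor, adapted/B6129SF1 replicate 1, with 21.1 FPKM. Ptprb, the endothelial phosphatase that restrains Tie2, ran from 2.51 to 6.31 FPKM across the tumors. The remaining ligands Angpt1, Angpt4 and Svep1 fell under the filter on low values, with Angpt1 never above 1.02 FPKM. Of the VEGF receptors, 0 of 4 tested were called in either comparison. Flt1 averaged 5.11, 7.41 and 9.05 FPKM in the original/B6129SF1, adapted/B6129SF1 and adapted/C57BL/6 groups, with its adapted/C57BL/6 tumors all above the original/B6129SF1 tumors (log2 fold change 0.74 ± 0.31, adjusted p = 0.187). Kdr, the main signalling receptor, averaged 3.35, 4.09 and 4.06 FPKM. By limma 1 and 2 of the 4 had an unadjusted p under 0.05, against 26.5% and 24.4% of all genes tested, among them the co-receptor Nrp2, the most abundant, which averaged 49.1, 38.5 and 39.3 FPKM (adjusted p = 0.125 and 0.179).

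Sox17, a SOXF factor of arterial endothelium, reached the 1 FPKM needed for the fit in only 2 tumors and was not tested with the other genes. It read 0.75, 0.827 and 0.636 FPKM in the original/B6129SF1 tumors, 0.728, 0.870 and 1.78 FPKM in the adapted/B6129SF1 tumors, and 1.03, 0.661 and 0.469 FPKM in the adapted/C57BL/6 tumors. The groups overlapped, and exact two-sided permutation tests gave p = 0.3 for the adapted/B6129SF1 group and p = 1 for the adapted/C57BL/6 group against the original/B6129SF1 group, where 0.1 is the smallest p that 3 tumors a group allow. The related factors Sox18 and Sox7 were stronger, with Sox18 at 6.77 ± 0.814, 10.2 ± 2.53 and 7.86 ± 1.71 FPKM in the 3 groups, and neither was called.

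**Figure D2:**
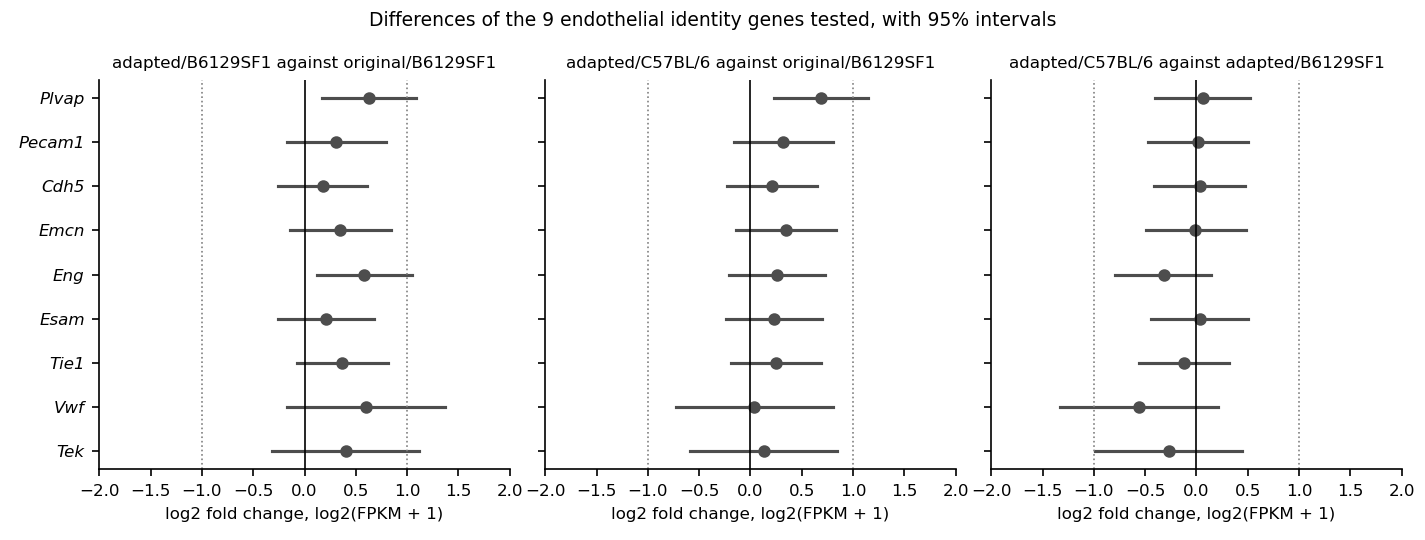
Log2 fold change (horizontal axes, on the log2(FPKM + 1) scale) of the 9 endothelial identity genes tested, with 95% intervals from limma, in the 3 pairs of groups; dotted lines mark a log2 fold change of 1 in either direction. Every point lies above 0 in the left and middle panels, but the interval lies above 0 only for Plvap and Eng in the first and only for Plvap in the second, and in the right panel every interval spans 0.

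Counts of tumors that do not overlap gave a similar picture. The adapted/B6129SF1 tumors lay wholly above the original/B6129SF1 tumors for 2 of the 9 genes, Plvap and Eng, which is 22.2% against 13.6% of all genes tested. The adapted/C57BL/6 tumors did so for 3 of 9, Plvap, Emcn and Tie1, which is 33.3% against 14.9%. Neither group lay wholly below for any of the 9. With 9 genes, these shares rest on 1 or 2 genes more than the background. In the adapted/C57BL/6 group, 8 of 9 intervals lay within a log2 fold change of 1 in either direction, the exception being Plvap, and in the adapted/B6129SF1 group 5 of 9 did so.

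Between the groups that received adapted cells, which differ in host strain, the endothelial genes differed by less than the spread between tumors. Of the 9 genes, 0 passed by limma, with adjusted p of 0.854 or more, and 0 had an unadjusted p under 0.05. Over all 10263 genes, 3 (0.0292%) were DEGs and 6.27% had an unadjusted p under 0.05. The log2 fold changes of the adapted/C57BL/6 against the adapted/B6129SF1 group ran from -0.56 ± 0.34 for Vwf to 0.06 ± 0.20 for Plvap, with a median of -0.01. For Pecam1 the interval was -0.47 to 0.50 and for Cdh5 -0.41 to 0.47. The intervals of 8 of the 9 lay within 1 of 0, and only that of Vwf reached further, to -1.33. The adapted/C57BL/6 tumors were the more even of the pair for Plvap, with a coefficient of variation of 2.89% against 30.9%, and for Emcn, with 5.97% against 29.3%.

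Single tumors stood apart within the groups. Relative to the original/B6129SF1 mean of each gene, the median over the 10 genes was 1.90 in adapted/B6129SF1 replicate 3, 1.40 in adapted/B6129SF1 replicate 1 and 1.38 in adapted/C57BL/6 replicate 1. It was 0.934 in adapted/B6129SF1 replicate 2, level with original/B6129SF1 replicates 1 and 2 at 0.935 and 0.940. Adapted/B6129SF1 replicate 3 held the highest value of all 9 tumors for 8 of the 9 genes tested and for Sox17, whereas 15.2% of all genes tested had their highest value there. Adapted/B6129SF1 replicate 2 was the lowest of its group for 9 of 10 genes, and adapted/C57BL/6 replicate 1 was the highest of its group for all 10. The shares of all genes with these orders within a group were not computed.

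Skeletal muscle transcripts were also highest in adapted/B6129SF1 replicate 3 and adapted/C57BL/6 replicate 1. The 16 muscle markers, led by Mylpf, Acta1 and Myl1, reached 7.41% of the FPKM total in adapted/B6129SF1 replicate 3. In adapted/C57BL/6 replicate 1 they reached 1.34%. In the other 7 tumors they made up between 8.43e-04% and 0.159%, and 0 of 15 tested markers passed in any pair of groups. Adapted/B6129SF1 replicate 1, also high for the endothelial genes, had the highest share of these 7, at 0.159%. Adapted/B6129SF1 replicate 3 also had the highest summed level of the 5 adipocyte markers, at 34.0 FPKM, followed by adapted/C57BL/6 replicate 1 at 11.2 FPKM, with 3.87 FPKM or less elsewhere. Adapted/C57BL/6 replicate 1 carried the most red blood cell transcript, at 116 FPKM for Hba-a1 and Hba-a2 together against 6.52 to 26 FPKM in the others. Of the tested adipocyte and red blood cell markers, 0 of 2 passed in each list. With both muscle-rich tumors left out, the median log2 fold change of the 9 genes was 0.18 in each adapted group and 7 of 9 values lay above 0 in each. With a muscle term in the model, an alternative chosen after seeing the data, the medians were 0.16 and 0.14, with 9 of 9 and 7 of 9 above 0.

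**Figure D3:**
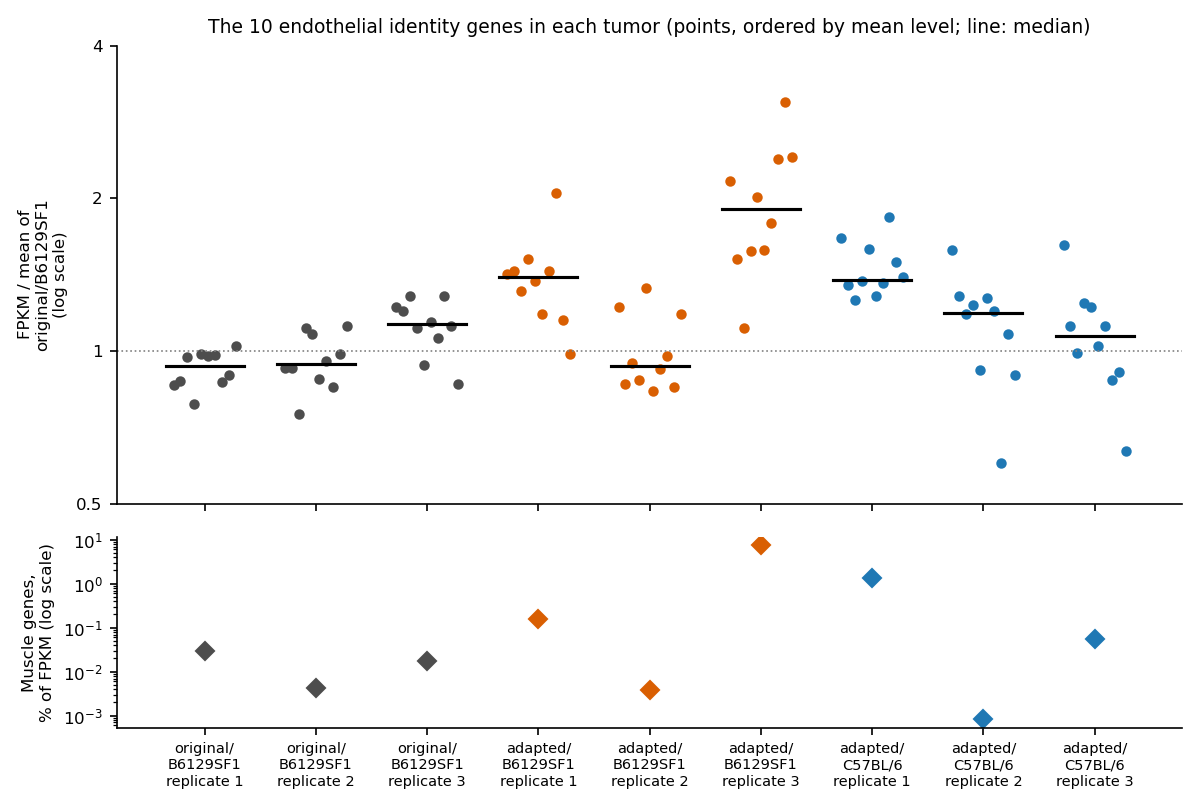
Upper panel, FPKM of each of the 10 endothelial identity genes in each tumor divided by the mean of the original/B6129SF1 group (log scale; points ordered by mean level, line at the median); lower panel, summed skeletal muscle markers as a percentage of all FPKM (log scale). The medians are highest in adapted/B6129SF1 replicate 3 (1.90), adapted/B6129SF1 replicate 1 (1.40) and adapted/C57BL/6 replicate 1 (1.38). The muscle share peaks in the first and last of these, and adapted/B6129SF1 replicate 1 comes next.

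Leukocyte markers had log2 fold changes of the same sign as the endothelial genes, and no marker passed. The 9 markers with a row, including Ptprc, Itgb2 and Csf1r, summed to 499 ± 58.7 FPKM in the original/B6129SF1 group, 754 ± 29.9 FPKM in the adapted/B6129SF1 group and 733 ± 218 FPKM in the adapted/C57BL/6 group. Their log2 fold changes were above 0 for 9 of 9 in both comparisons, against 45.7% and 46.1% of all genes tested. The medians were 0.61 and 0.65. By limma adjusted p 0 of 9 passed, while 6 and 5 had an unadjusted p under 0.05, against 26.5% and 24.4% of all genes tested. Since Pecam1, Eng and Tek are also expressed by some leukocytes, these values belong beside theirs, and their part in the differences was not tested. The summed epithelial markers, a list added after values were seen, were 830 ± 221, 377 ± 148 and 395 ± 26.2 FPKM in the same group order, nearly all from Krt8 and Krt18. By adjusted p 1 of 5 was lower in each adapted group (Krt8), against 3.92% and 2.77% of all genes tested. Of the thyroid follicular markers, Nkx2-1 was at 23.5 to 44.5 FPKM in every tumor, Tg varied from 0.0153 to 31.0 FPKM, and Pax8 was never above 1.61 FPKM.

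Beyond the 10 genes, a wider set of 93 endothelial genes in 7 lists gave 77 that could be tested, out of 85 with a row. A handful of these passed where the identity genes did not. In the adapted/B6129SF1 group 6 of 77 were higher and 2 lower by adjusted p, against 4.37% and 3.92% of all genes tested, and 1 was a higher DEG, against 2.36%. In the adapted/C57BL/6 group 5 were higher and 1 lower, against 3.99% and 2.77%, and 2 were higher DEGs, against 2.42%. The median log2 fold changes were 0.20 and 0.17, between those of the identity genes and of all genes. Tumors lay wholly above the original/B6129SF1 group for 17 of 77 genes (22.1%) in the adapted/B6129SF1 group, against 13.6% of all genes tested, and for 23 of 77 (29.9%) in the adapted/C57BL/6 group, against 14.9%. They lay wholly below it for 7 and 5 of 77, against 15.9% and 17.9%. Between the adapted groups 0 of 77 passed, with 4 at an unadjusted p under 0.05 by limma, a share below the 6.27% of all genes tested.

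Esm1, which encodes the proteoglycan endocan released by VEGF-stimulated tip cells, was the DEG in both adapted groups. It read 8.77, 5.2 and 7.24 FPKM in the original/B6129SF1 tumors, 28.3, 13.7 and 21.0 FPKM in the adapted/B6129SF1 tumors, and 19.4, 50.6 and 35.3 FPKM in the adapted/C57BL/6 tumors. No adapted tumor overlapped with an original/B6129SF1 tumor, and the log2 fold change was 1.41 ± 0.36 (adjusted p = 0.0468) in the adapted/B6129SF1 group and 2.08 ± 0.36 (adjusted p = 0.0129) in the adapted/C57BL/6 group. Of the muscle-rich tumors, adapted/B6129SF1 replicate 3 was the middle value of its group and adapted/C57BL/6 replicate 1 the lowest of its group. The first call failed under 10 of the 19 alternatives, with adjusted p between 0.0299 and 0.116, among them the fit without both muscle-rich tumors (0.0601) and the one with a muscle term (0.0689). The second failed only without original/B6129SF1 replicate 3 (adjusted p = 0.051) or adapted/C57BL/6 replicate 3 (0.061), with 0.00854 as its lowest. Ecscr, an endothelial surface protein that regulates chemotaxis, read 9.58, 9.61 and 12.0 FPKM in the original/B6129SF1 tumors, 16.9, 20.8 and 26.1 FPKM in the adapted/B6129SF1 tumors, and 20.9, 26.8 and 30.8 FPKM in the adapted/C57BL/6 tumors. It was a DEG in the adapted/C57BL/6 group (log2 fold change 1.24 ± 0.19, adjusted p = 0.00713), passed on adjusted p in the adapted/B6129SF1 group (0.95 ± 0.19, adjusted p = 0.0201), and again no adapted tumor overlapped with an original/B6129SF1 tumor.

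The other genes that passed were named after their values were seen where they fell outside the rule on named genes, as Podxl, Egfl7 and Gata2 did. Podxl, the sialomucin podocalyxin of the luminal endothelial surface and of some epithelia, ran from 5.61 to 6.97 FPKM in the original/B6129SF1 tumors and from 10.5 to 15 FPKM in the adapted tumors. It rose in both adapted groups (log2 fold change 0.85 and 0.83, both SE 0.14, adjusted p = 0.0126 and 0.0134). Egfl7, a factor secreted by endothelium, went from 11.9 to 14.2 FPKM in the original/B6129SF1 tumors against 17.4 to 24.5 FPKM in the adapted tumors. It rose on the log2 scale by 0.59 ± 0.14 in both (adjusted p = 0.0406 and 0.0471). Gata2, a transcription factor of endothelium and of blood progenitors, was at 4.75 to 6.85 FPKM against 10.3 to 13.8 FPKM. Its log2 values rose by 1.00 ± 0.16 and 0.93 ± 0.16 (adjusted p = 0.0109 and 0.0125). Procr, the endothelial protein C receptor, was at 6.48 to 9.5 FPKM against 11.6 to 17.3 FPKM. It rose in the adapted/B6129SF1 group (0.81 ± 0.17, adjusted p = 0.0262) and gave 0.67 ± 0.17 (adjusted p = 0.0538) in the adapted/C57BL/6 group. No adapted tumor overlapped with an original/B6129SF1 tumor for any of these 4 genes. Both genes that fell are expressed by other cell types as well. For the genes that rose, Esm1 and Ecscr among them, the cells of origin were not tested either. Cav2, a caveolin, fell from 52.7 ± 9.87 FPKM to 33.3 ± 2.37 and 34.1 ± 1.36 FPKM (log2 fold change -0.63 and -0.60, adjusted p = 0.0229 and 0.0305). Cd34, a sialomucin of endothelium that fibroblasts and progenitors also carry, fell from 278 ± 18.4 FPKM to 152 ± 15.9 FPKM in the adapted/B6129SF1 group (-0.87 ± 0.12, adjusted p = 0.00666) and was at 232 ± 25.2 FPKM in the adapted/C57BL/6 group (-0.26 ± 0.12, adjusted p = 0.218). At these levels Cd34 exceeded Pecam1 in every tumor. Cd34 and Gata2 in the adapted/B6129SF1 group and Ecscr in the adapted/C57BL/6 group passed under all 19 alternatives. Podxl missed the threshold in both only without original/B6129SF1 replicate 3 (adjusted p = 0.0547 and 0.0587), and Gata2 in the adapted/C57BL/6 group only without that tumor (0.0562) or without adapted/C57BL/6 replicate 3 (0.0502). Ecscr in the adapted/B6129SF1 group missed it without original/B6129SF1 replicate 1 (0.0707) or 2 (0.052) or adapted/B6129SF1 replicate 2 (0.0548). Egfl7 was the least secure, missing it under 13 and 11 of the 19, with adjusted p up to 0.127 and 0.148. Cav2 missed it under 7 and 6, up to 0.0744 and 0.1, and Procr under 7, up to 0.0753.

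By list, the calls were spread thinly. Of all genes tested, 4.37% were higher and 3.92% lower by adjusted p in the adapted/B6129SF1 group. The shares were 3.99% and 2.77% in the adapted/C57BL/6 group. Of the transcription factors, 1 of 11 tested was higher in each adapted group (Gata2). Klf4 and Hhex, the most abundant of them, gave no call at means of 58.6 and 30.9 FPKM in the original/B6129SF1 group. Hhex still lay wholly below the original/B6129SF1 tumors in both adapted groups (log2 fold change -0.63 and -0.43, limma adjusted p = 0.054 and 0.163). Its cells of origin were not tested. Of the 11, 3 and 2 lay wholly above the original/B6129SF1 tumors, against 13.6% and 14.9% of all genes tested. Wholly below lay 2 and 1, Hhex included, against 15.9% and 17.9% of all genes tested. Of the pan-endothelial genes, 3 of 26 were higher in each (Ecscr, Podxl and Egfl7) and 1 was lower in the adapted/B6129SF1 group (Cd34). Their log2 fold changes were above 0 for 21 of 26 in each comparison, against 45.7% and 46.1% of all genes tested. None of 9 arterial genes passed in either comparison, Cxcl12 running from 98.7 to 308 FPKM and Efnb2 from 16 to 30.8 FPKM, and by limma 1 and 3 of them had an unadjusted p under 0.05, where 26.5% and 24.4% of all genes tested did. None of 7 venous and activated endothelial genes passed, with 1 and 3 at an unadjusted p under 0.05 against the same 26.5% and 24.4%, and Vcam1, a leukocyte adhesion molecule, averaged 23.2, 41.7 and 46.9 FPKM over the groups with overlap only in the adapted/B6129SF1 group. Of the capillary genes 1 of 7 was lower in each (Cav2), and Fabp4, a fatty acid carrier of capillary endothelium and adipocytes, reached 263 FPKM in adapted/B6129SF1 replicate 3 against 15.4 to 78.6 FPKM elsewhere. Of the tip cell and tumor vessel genes 1 of 11 passed in each (Esm1), with the basement membrane collagens Col4a1 and Col4a2 at 59.3 to 107 and 44.3 to 77.8 FPKM. Of the hemostasis genes 1 of 6 was higher in the adapted/B6129SF1 group (Procr) and 0 of 6 in the adapted/C57BL/6 group, with 1 at an unadjusted p under 0.05, below the 24.4% of all genes tested.

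**Figure D4:**
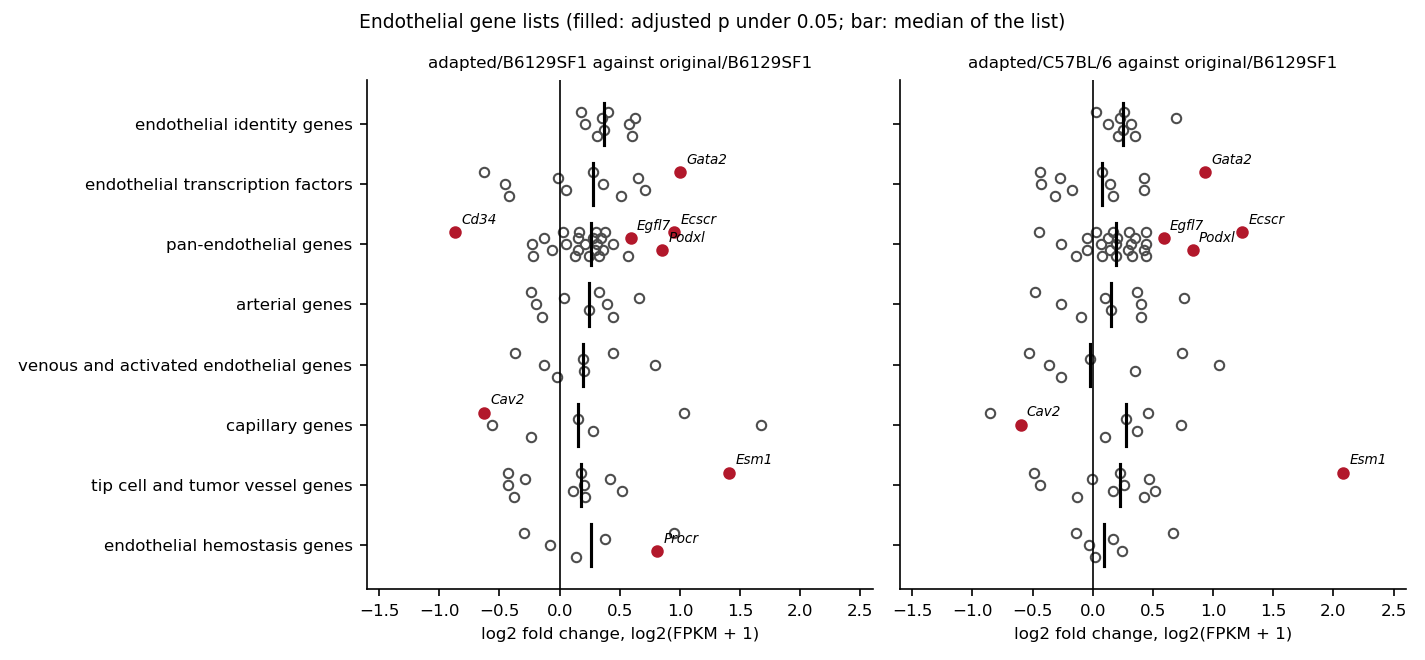
Log2 fold change (horizontal axes, log2(FPKM + 1) scale) of each tested endothelial gene by list against the original/B6129SF1 group; open circles did not pass, filled circles had a limma adjusted p under 0.05, and bars mark each list's median. The 9 identity genes in the top row lie above 0 with none filled, and Esm1 is the furthest point among those that passed in both panels.

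Levels were also set against Pecam1 within the same tumor, a comparison chosen after values were seen and given without a test. Leukocytes also carry Pecam1, and their part in these ratios was not tested. Emcn, Tie1 and Esam had similar mean ratios in the 3 groups. The ratio of Emcn to Pecam1 averaged 0.539 ± 0.0880, 0.556 ± 0.0108 and 0.550 ± 0.0385 in the original/B6129SF1, adapted/B6129SF1 and adapted/C57BL/6 groups. That of Tie1 averaged 0.248 ± 0.0291, 0.265 ± 0.0214 and 0.240 ± 0.00899, and that of Esam 0.496 ± 0.0480, 0.465 ± 0.0549 and 0.468 ± 0.0202. Other identity genes were less even. The Eng ratio averaged 0.513 ± 0.106, 0.637 ± 0.149 and 0.497 ± 0.122. The Vwf ratio ran from 0.0963 to 0.112, from 0.119 to 0.165 and from 0.0493 to 0.143 in the same group order. The ratio of Plvap to Pecam1 was 0.958, 0.976 and 0.994 in the original/B6129SF1 tumors, 0.967, 1.39 and 1.39 in the adapted/B6129SF1 tumors, and 1.21, 1.2 and 1.41 in the adapted/C57BL/6 tumors. Adapted/B6129SF1 replicate 1 sat among the original/B6129SF1 tumors, and the other 5 adapted tumors sat above them. Esm1 ran at 0.253 to 0.452 of Pecam1 in the original/B6129SF1 tumors and at 0.622 to 1.78 in the adapted tumors, and Ecscr at 0.449 to 0.494 and 0.530 to 1.24, without overlap in either case.

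**Figure D5:**
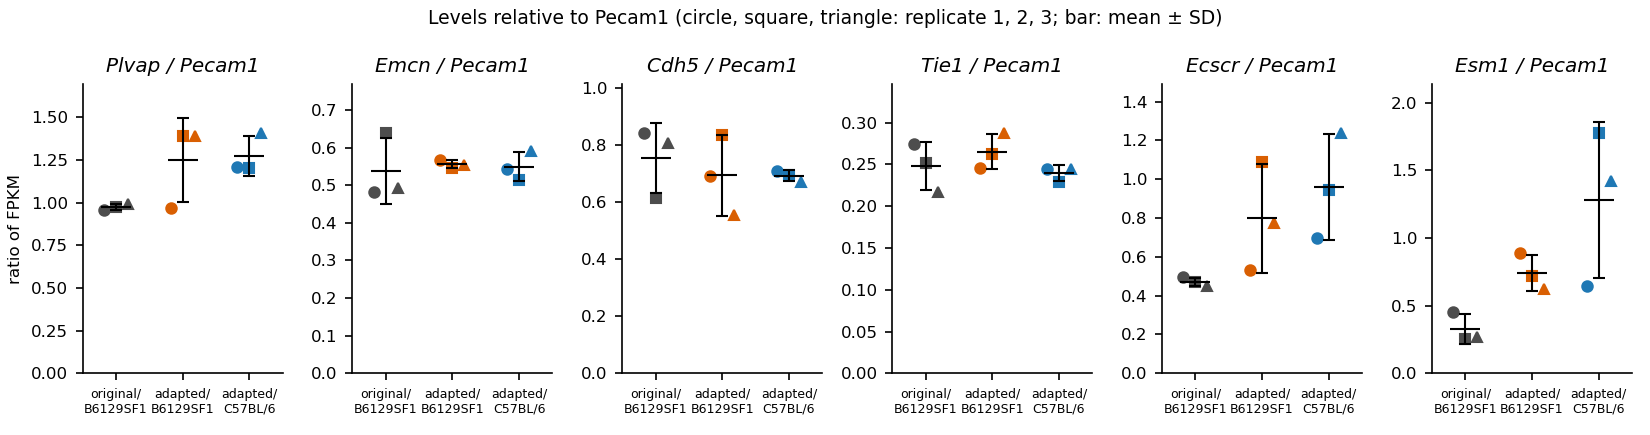
Ratio of FPKM to that of Pecam1 in the same tumor (vertical axes, from 0) for Plvap, Emcn, Cdh5, Tie1, Ecscr and Esm1, by group; bars give the mean and SD of 3 tumors. The Emcn and Tie1 ratios of each adapted group overlap with those of the original/B6129SF1 group. Between the adapted groups the Emcn ratios overlap and the Tie1 ratios do not, by a narrow margin. The Ecscr and Esm1 ratios of every adapted tumor lie above those of the original/B6129SF1 tumors.

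The genes whose pattern over the 9 tumors was most like that of the identity genes were ranked by Pearson's r with the mean of the 9 standardized log2 values, among 8114 other genes with a mean of at least 5 FPKM. The closest were Spryd4 (r = 0.955), Ms4a8a (0.953), Fyco1 (0.938), Pygl (0.937), Uchl1 (0.931), Rnf169 (0.922), Aldoa (0.921) and Gys1 (0.920). Aldoa, a glycolytic enzyme that muscle makes in quantity, was strongest in the muscle-rich adapted/B6129SF1 replicate 3, at 1710 FPKM against 481 to 905 FPKM elsewhere. After each group mean was subtracted, the closest was Thbd (r = 0.985), which encodes thrombomodulin, the endothelial receptor that turns thrombin towards protein C activation. It was followed by Dnajb2 (0.974), Itpkc (0.965), Gab1 (0.958), Lamb2 (0.957), Spryd4 (0.956), Mcl1 (0.946) and Maf (0.936). Without the 2 tumors furthest from the median of the score, r ran from 0.816 to 0.905 in the first ranking and from 0.733 to 0.96 in the second, with 0.943 for Thbd. These correlations describe 9 tumors that share groups and normalization. The genes were picked for high r among 8114 over the same tumors, so r without 2 of them is not an independent check. Thbd tracked the endothelial genes within groups while its own group means went the other way, at 6.36 ± 0.652 FPKM in the original/B6129SF1 group, 5.03 ± 1.1 FPKM in the adapted/B6129SF1 group and 5.65 ± 0.372 FPKM in the adapted/C57BL/6 group, and it was not called (adjusted p = 0.234 and 0.598).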

How the data were processed

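Whole-tumor RNA was measured in 9 tumors, grouped by the labels. Per the labels and the methods of the study, the authors checked reads with FastQC, aligned them to mm10 with HISAT2 and used Cuffnorm, which gave the deposited FPKM for all tumors together. The annotation and Cuffnorm scaling are not given in the sources used here. Absolute depth is unknown. Steps between low FPKM values gave relative depths of 0.966 to 1.35, which are approximate, and the number of tumors limits the precision.

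Values were taken as log2(FPKM + 1), a scale that shrinks differences in weak genes. A minimum of 1 FPKM in 3 or more tumors left 10263 genes, which were fitted with limma 3.58.1 in R 4.3.3 (lmFit, eBayes with a trend) in one model of 3 groups, with Benjamini-Hochberg adjustment over all of them. The fit was tested on simulated data with planted differences larger than any seen for the identity genes. That test does not show whether differences of their size would be found. Sox17 was compared by exact permutation of FPKM. Alternatives were another pseudocount, filter, scaling or model, a replicate block, and tumors left out. The endothelial genes and lists were chosen with earlier results of these data known. Genes named are the 10 identity genes, and per list the DEGs and up to 4 others of highest mean, plus the 8 most alike in each ranking. No mouse annotation was used, so genes have no coordinates or sequences here.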

Additional observations from a re-analysis of the deposited data

How the results depend on the processing

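With 3 tumors a group and no counts, any difference inside the interval given for a gene is compatible with its values, and small differences may have been missed. The count of DEGs among the identity genes was 0 in each pair of groups under every alternative run. Among the wider endothelial genes, the adapted/B6129SF1 group had 1 DEG (Esm1), which became 3 with a pseudocount of 0.1 FPKM, 2 with upper quartile scaling, 0 without a filter and 0 with the replicate block, and 8 genes passed on adjusted p alone. Leaving out single tumors gave 0 to 3, with 0 without original/B6129SF1 replicate 2 or adapted/C57BL/6 replicate 3 and 3 without adapted/B6129SF1 replicate 2. The adapted/C57BL/6 group had 2 (Esm1 and Ecscr), with 6 on adjusted p alone and 1 to 3 on leaving out single tumors, 1 without original/B6129SF1 replicate 3 or adapted/C57BL/6 replicate 3. The cause was not tested.

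Same-numbered tumors are different animals, and their deviations correlated between -0.39 and 0.61. Adapted/C57BL/6 replicate 2 was closest to the tumor of its own number in both other groups (r = 0.61 with adapted/B6129SF1 and 0.30 with original/B6129SF1). Whether same-numbered tumors share more than a number was not tested. A replicate block lowered the genes called on adjusted p from 850 to 444 in the adapted/B6129SF1 group, from 693 to 388 in the adapted/C57BL/6 group and from 3 to 0 between the adapted groups. It changed no call among the identity genes.

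No log2 fold change of an identity gene was called in the main fit, so every sign that turned belonged to an uncalled one. With both muscle-rich tumors left out, against original/B6129SF1, Esam (-0.0025) and Tek (-0.0038) turned in adapted/B6129SF1, and Tek (-0.01) and Vwf (-0.29) in adapted/C57BL/6. Between the adapted groups Cdh5 (-0.04), Tie1 (0.01) and Emcn (0.09) turned. With a muscle term, added after seeing the data, Tek (-0.07) and Vwf (-0.19) turned in adapted/C57BL/6 against original/B6129SF1, and Emcn (0.07) between the adapted groups. Leaving out single tumors, the log2 fold changes in adapted/B6129SF1 against original/B6129SF1 ran from -0.0025 to 0.36 for Cdh5, from -0.0025 to 0.43 for Esam and from -0.0038 to 0.67 for Tek. In adapted/C57BL/6 against original/B6129SF1 they ran from -0.01 to 0.23 for Tek and from -0.29 to 0.28 for Vwf. Between the adapted groups they ran from -0.24 to 0.16 for Pecam1, -0.08 to 0.14 for Cdh5, -0.19 to 0.24 for Esam, -0.54 to 0.13 for Tek, -0.35 to 0.07 for Tie1, -0.26 to 0.13 for Emcn and -0.11 to 0.29 for Plvap.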

Other observations

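Genes of the mural cells that wrap endothelium were not uniform. Of 11 pericyte and smooth muscle genes tested, 1 was higher and 1 lower in the adapted/B6129SF1 group by limma adjusted p. In the adapted/C57BL/6 group 2 were higher and 1 lower. All of them were DEGs, against 3.22% and 3.09% of all genes tested in these groups. Acta2, the smooth muscle actin that fibroblasts and pericytes also make, read 15.8, 8.33 and 8.99 FPKM in the original/B6129SF1 tumors, 27.9, 30.9 and 76.5 FPKM in the adapted/B6129SF1 tumors, and 34.2, 41.7 and 47.4 FPKM in the adapted/C57BL/6 tumors. No adapted tumor overlapped with an original/B6129SF1 tumor (log2 fold change 1.84 ± 0.37 and 1.85 ± 0.37, adjusted p = 0.0229 and 0.0242). Cnn1, a smooth muscle calponin, rose in the adapted/C57BL/6 group from 1.32 ± 0.638 to 5.92 ± 1.81 FPKM (adjusted p = 0.0147). Cspg4, the pericyte proteoglycan NG2, which tumor cells can also express, fell from 7.96 ± 1.96 FPKM to 3.42 ± 0.690 and 3.12 ± 1.19 FPKM (adjusted p = 0.0354 and 0.0262). Without original/B6129SF1 replicate 3 none of these calls passed, with adjusted p of 0.0811 and 0.0895 for Acta2, 0.0618 for Cnn1 and 0.114 and 0.0911 for Cspg4. Counting all alternatives, that one included, Acta2 missed the threshold under 3 and 6 of 19. Cspg4 missed it under 8 and 4 of 18, and Cnn1 under 2 of 18. Pdgfrb, the pericyte growth factor receptor, was at 37.4 to 82.0 FPKM with no call.

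Of the lymphatic endothelial genes, 4 were tested and 0 passed in either comparison, with 0 and 1 at an unadjusted p under 0.05 by limma, against 26.5% and 24.4% of all genes tested. Prox1, the defining factor of lymphatic endothelium, was at 0.204 FPKM or less in every tumor. For 6 of the 8 genes the highest pair of values was in the muscle-rich adapted/B6129SF1 replicate 3 and adapted/C57BL/6 replicate 1, as for the lymphatic chemokine Ccl21a at 10.5 and 17.6 FPKM against 1.79 FPKM or less elsewhere. The share of all genes with this highest pair was not computed. Among the 6, Prox1, Mmrn1, Reln and Stab2 fell under the filter on low values. Reln was at 0.298 FPKM or less and Stab2 at 0.0606 FPKM or less. The more abundant Lyve1 and Pdpn, which other cell types also express, did not have their highest pair in these tumors. Lyve1 was highest in original/B6129SF1 replicate 2, at 35.7 FPKM, and Pdpn in adapted/C57BL/6 replicate 3, at 49.1 FPKM.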
